A study of Mus musculus with 71 samples.

Results

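The genes described here are 39 genes of cholesterol and fatty acid synthesis in the mouse hippocampus, together with the SREBP factors that switch these pathways on and the LXR receptors and carriers that handle finished sterol. They were chosen by their place in these pathways, with earlier results of these data known. They are 39 of the 57010 genes in the count table. All 39 passed the minimum of 10 counts in total over all mice, and the lowest count of any of them in any mouse was 109, for Nr1h3. By role they fall into 18 sterol synthesis enzymes, 5 SREBP regulators, 10 genes of sterol turnover, transport and LXR, and 6 genes of fatty acid synthesis.

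Neurons and astrocytes make brain cholesterol in place, since lipoproteins do not cross the blood-brain barrier. When sterol in the endoplasmic reticulum runs low, Scap carries the SREBP factors (Srebf1, Srebf2) to the Golgi, from where they reach the nucleus and raise transcription of the enzymes, while Insig proteins hold Scap back when sterol is plentiful. Oxysterols act in the opposite sense through LXR (Nr1h2, Nr1h3), which raises the exporters Abca1 and Abcg1, the carrier Apoe and also Srebf1.

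The study asked how an obesogenic diet, and eating it mainly in the active phase, affect hippocampal memory. Wild-type C57BL/6J mice were kept from a juvenile age on normal chow without limit (NC ad lib), on a high-fat and sugar diet without limit (HFS ad lib), or on that diet with food later restricted to the night phase and the hours of light next to it (HFS TRF). No sequenced group had restricted access to chow. Each diet was sampled in 4 conditions, in the home cage at zt3 (HC zt3, by day) or zt15 (HC zt15, by night), and 1 h or 12 h after training in an object recognition task (ORM+1 h, ORM+12 h). Training took place by day, so that ORM+1 h mice were sampled near zt3 and ORM+12 h mice near zt15. HC zt3 and ORM+1 h form the first experiment (36 mice) and HC zt15 and ORM+12 h the second (35 mice), with 6 mice in each of the 12 groups except the 5 of HFS TRF HC zt15. Messenger RNA bound to ribosomes that carry phosphorylated S6 was purified from each hippocampus (pS6-TRAP) and sequenced, so that the counts weigh cells by their S6 phosphorylation. Total counts per mouse ran from 34698914 to 62758570, with a median of 53999489.

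Levels below are CPM, counts scaled to the library size after TMM normalization, and levels of the 39 genes are compared with each other only per kilobase of exon. For each marker list the marker with the highest CPM is named, without regard to length. A gene is called where edgeR's quasi-likelihood test gives it an adjusted p under 0.05 (Benjamini-Hochberg, over all 30141 genes tested). SE is the standard error of a log2 fold change, and rose and fell are used only of called genes. In bulk tissue, fewer cells of a type and less RNA per cell cannot be told apart.

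Per kilobase, Apoe, the lipid carrier that astrocytes secrete, had the highest mean level of the 39 genes, at 197 CPM per kilobase. Scd2, the main stearoyl-CoA desaturase of brain, followed at 84.8, and Hmgcs1, the synthase that opens the mevalonate pathway, at 32.2. The LXR receptor Nr1h2 stood at 22.4 and Cyp46a1, the hydroxylase through which neurons clear cholesterol, at 21.8, with Fasn, the fatty acid synthase, at 20.1 and Fdft1, squalene synthase, at 15.8. At the low end were Abca1 at 1.22, the sterol reductase Tm7sf2 at 0.960 and Nr1h3, the other LXR receptor, at 0.705. Median levels per kilobase were 4.43 for the sterol synthesis enzymes, 5.43 for the SREBP regulators, 6.00 for turnover, transport and LXR, and 9.39 for fatty acid synthesis.

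Some of these genes share exon bases with neighbours, and whether the counting took strand into account is not stated. Of the 39, 21 share exon bases with another annotated gene, 4 of them on the same strand, and 18 share none. Fdft1 shares 24.8% of its exon bases with Ctsb and Cyp51 shares 21.1% with Akap9, each on the opposite strand. From chow to HFS ad lib mice, Ctsb itself differed by -0.04 on the log2 scale in the mean of 4 conditions (adjusted p = 0.829).

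Markers of the cell types of hippocampus were all measured. The 9 neuronal markers summed to between 11890 and 16700 CPM in the 71 mice, led by Camk2a at a mean of 4977. The 9 astrocyte markers summed to between 995 and 4989 CPM, led by Slc1a2 at 1074, and the 10 markers of myelinating oligodendrocytes to between 621 and 1397, led by Mbp at 409.8. Choroid plexus, which lies next to the hippocampus, had 8 markers that summed to between 100.2 and 18790 CPM, led by Ttr at 3204. No marker of these lists was at 0 in every mouse. Above 9000 CPM of choroid plexus markers stood 11 mice, 4 on NC ad lib, 4 on HFS ad lib and 3 on HFS TRF, and none of them was an HC zt3 mouse.

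**Figure D1:**
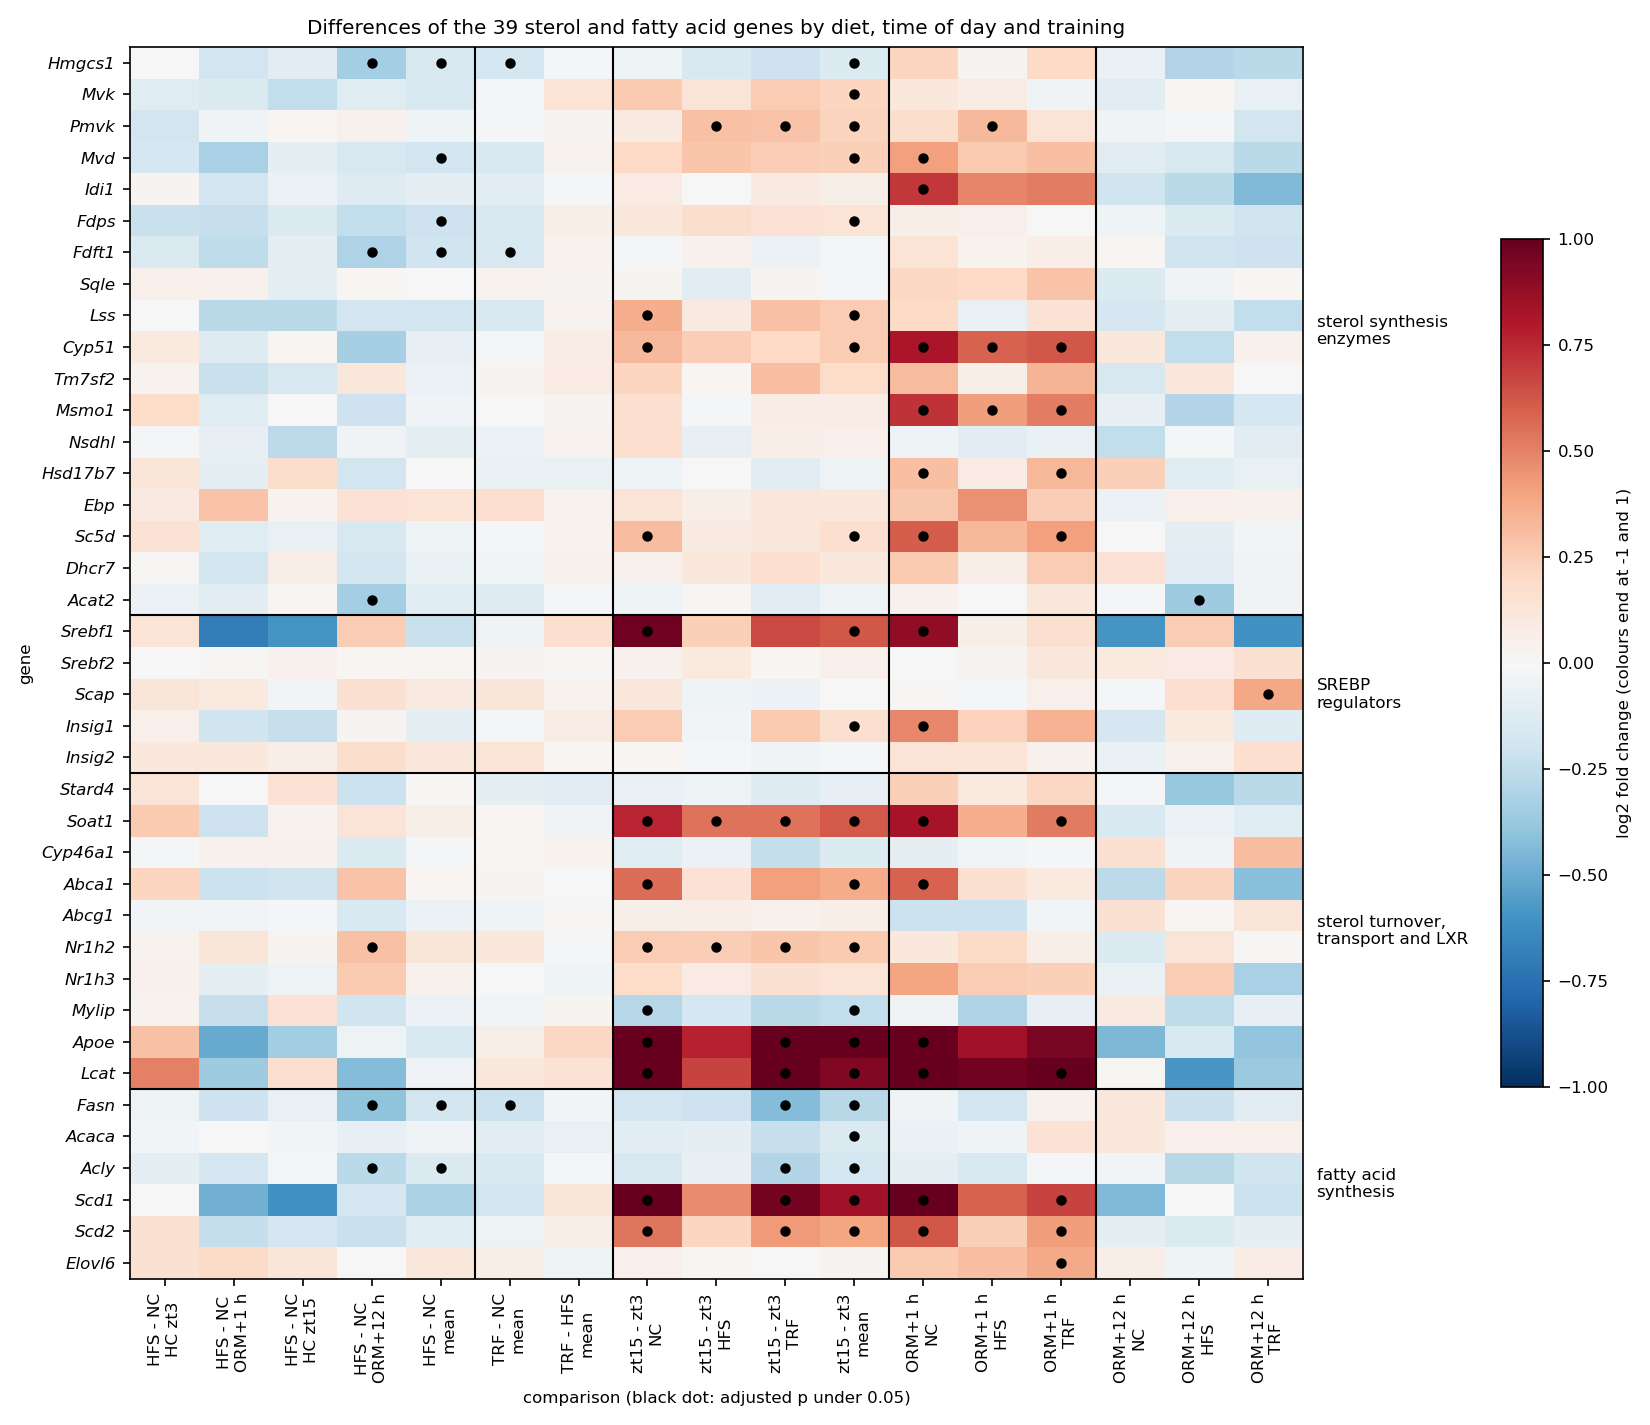
Log2 fold change of each of the 39 genes (vertical axis, grouped by role) in 17 comparisons (horizontal axis), with a black dot where the adjusted p was under 0.05 and colours that end at -1 and 1. Dots are dense in the comparisons of HC zt15 with HC zt3 and of ORM+1 h with HC zt3 on NC ad lib and HFS TRF. On HFS ad lib each of these comparisons has 3 dots. Dots are absent from HFS TRF against HFS ad lib.

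A set of enzymes of sterol and fatty acid synthesis was lower in mice with free access to the high-fat and sugar diet. In the mean of the 4 conditions, HFS ad lib mice had lower levels than NC ad lib mice of Hmgcs1, of Mvd, the decarboxylase that makes isopentenyl pyrophosphate, of Fdps, which makes farnesyl pyrophosphate, and of Fdft1, which commits it to sterol. Fasn and Acly, the citrate lyase that supplies acetyl-CoA for both pathways, were lower as well. The differences were small, between -0.14 and -0.21 on the log2 scale with 24 mice per diet. All 6 called genes of the 39 fell and none rose, where 2.61% of all genes tested were called, 1.09% higher and 1.53% lower. Among the 11998 genes at or above the mean level of the lowest of the 39, 5.38% were called.

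By role, 4 of 18 sterol synthesis enzymes fell, with 15 of 18 below 0 and a median log2 fold change of -0.09. Of the 6 fatty acid synthesis genes 2 fell, 5 were below 0 and the median was -0.13. None of the 5 SREBP regulators was called by edgeR (1 had an unadjusted p under 0.05, median 0.02), and none of the 10 genes of turnover, transport and LXR (1, median 0.00). DESeq2's Wald test called 11 of the 39, adding Mvk, Lss, Acat2 and Scd1, which were lower, and Nr1h2, which was higher. Over all 39 genes the median was -0.06, with 27 below 0 and 14 at an unadjusted p under 0.05, beside a median of 0.00 over all genes tested.

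Squalene synthase gave the smallest adjusted p. Fdft1 (ENSMUSG00000021273, chromosome 14 of GRCm39 from 63382189 to 63417027) had a lowest, median and highest level of 63.4, 81.2 and 95.4 CPM in the 24 NC ad lib mice and of 57.4, 68.7 and 84.9 CPM in the 24 HFS ad lib mice. The ranges overlapped, yet 21 of the 24 HFS ad lib mice lay below the NC ad lib median of their own condition. Its log2 fold change was -0.20 (SE 0.03, adjusted p = 0.00149).

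Farnesyl pyrophosphate synthase behaved alike in direction. Fdps (ENSMUSG00000059743, chromosome 3 from 89000888 to 89019213) ran from 44.0 to 68.2 CPM with a median of 53.8 on NC ad lib, and from 37.6 to 56.5 CPM with a median of 45.6 on HFS ad lib. Of the HFS ad lib mice 23 of 24 lay below the chow median of their condition, and 9 lay outside the whole range of the chow mice, although the ranges overlapped. The log2 fold change was -0.21 (SE 0.04, adjusted p = 0.0047).

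Earlier in the pathway, Hmgcs1 (ENSMUSG00000093930, chromosome 13 from 120151915 to 120170470) had levels of 132 to 218 CPM (median 177) on NC ad lib and of 113 to 226 CPM (median 165) on HFS ad lib. The 2 ranges overlapped, and 18 of 24 HFS ad lib mice were on the low side. Its log2 fold change was -0.16 (SE 0.04, adjusted p = 0.0203). Mvd (ENSMUSG00000006517, chromosome 8 from 123160336 to 123170324) went from 18.5 to 32.9 CPM (median 24.7) on NC ad lib and from 16.3 to 29.3 CPM (median 22.5) on HFS ad lib. Again the groups overlapped, with 21 of 24 HFS ad lib mice on the low side, and the log2 fold change was -0.19 (SE 0.05, adjusted p = 0.0241).

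In fatty acid synthesis, Fasn (ENSMUSG00000025153, chromosome 11 from 120696672 to 120715995) had 158 to 317 CPM (median 257) on NC ad lib and 164 to 289 CPM (median 234) on HFS ad lib. No HFS ad lib mouse lay outside the chow range, and 19 of 24 were on the low side. The log2 fold change of Fasn was -0.18 (SE 0.05, adjusted p = 0.0275), and that of Acly was -0.14 (SE 0.04, adjusted p = 0.0325). Scd1, the other desaturase, had a log2 fold change of -0.31 with a 95% confidence interval from -0.51 to -0.12 and was not called (adjusted p = 0.0634).

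Microglial markers moved with this diet comparison: of 6 markers 3 rose (Aif1 by 0.63, Tmem119 by 0.62 and Cx3cr1 by 0.52 on the log2 scale, adjusted p = 0.0232, 0.0232 and 0.0339), with a median of 0.57 over the list. Their sum was 22.6 to 60.6 CPM in NC ad lib mice and 31.0 to 277 CPM in HFS ad lib mice, the top value being HFS ad lib HC zt15 replicate 2, with Csf1r the highest at a mean of 21.8 CPM and none at 0 in every mouse. The other 23 HFS ad lib mice were at or below 54.4 CPM, inside the chow range, and the marker calls without replicate 2 were not tested. The part of microglia in the diet difference was not tested. Of 10 markers of myelinating oligodendrocytes Mobp alone was called, higher by 0.25 (adjusted p = 0.0351), with a median of 0.11 over the list. Of the 9 astrocyte markers none was called by edgeR (median -0.14, 1 at an unadjusted p under 0.05), and with their summed level as a covariate 6 of the 39 genes were called, the same 6 genes. Without the 11 choroid-rich mice no gene of the 39 was called by edgeR, 10 had an unadjusted p under 0.05, and the log2 fold changes of Fdft1 and Fdps were -0.16 and -0.17 (adjusted p = 0.0997 and 0.115). With the choroid plexus markers as a covariate the counts were 6 lower and 1 higher. Leaving out HFS ad lib HC zt15 replicate 1 took the count to 10, and so did a block for replicate number within condition.

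**Figure D2:**
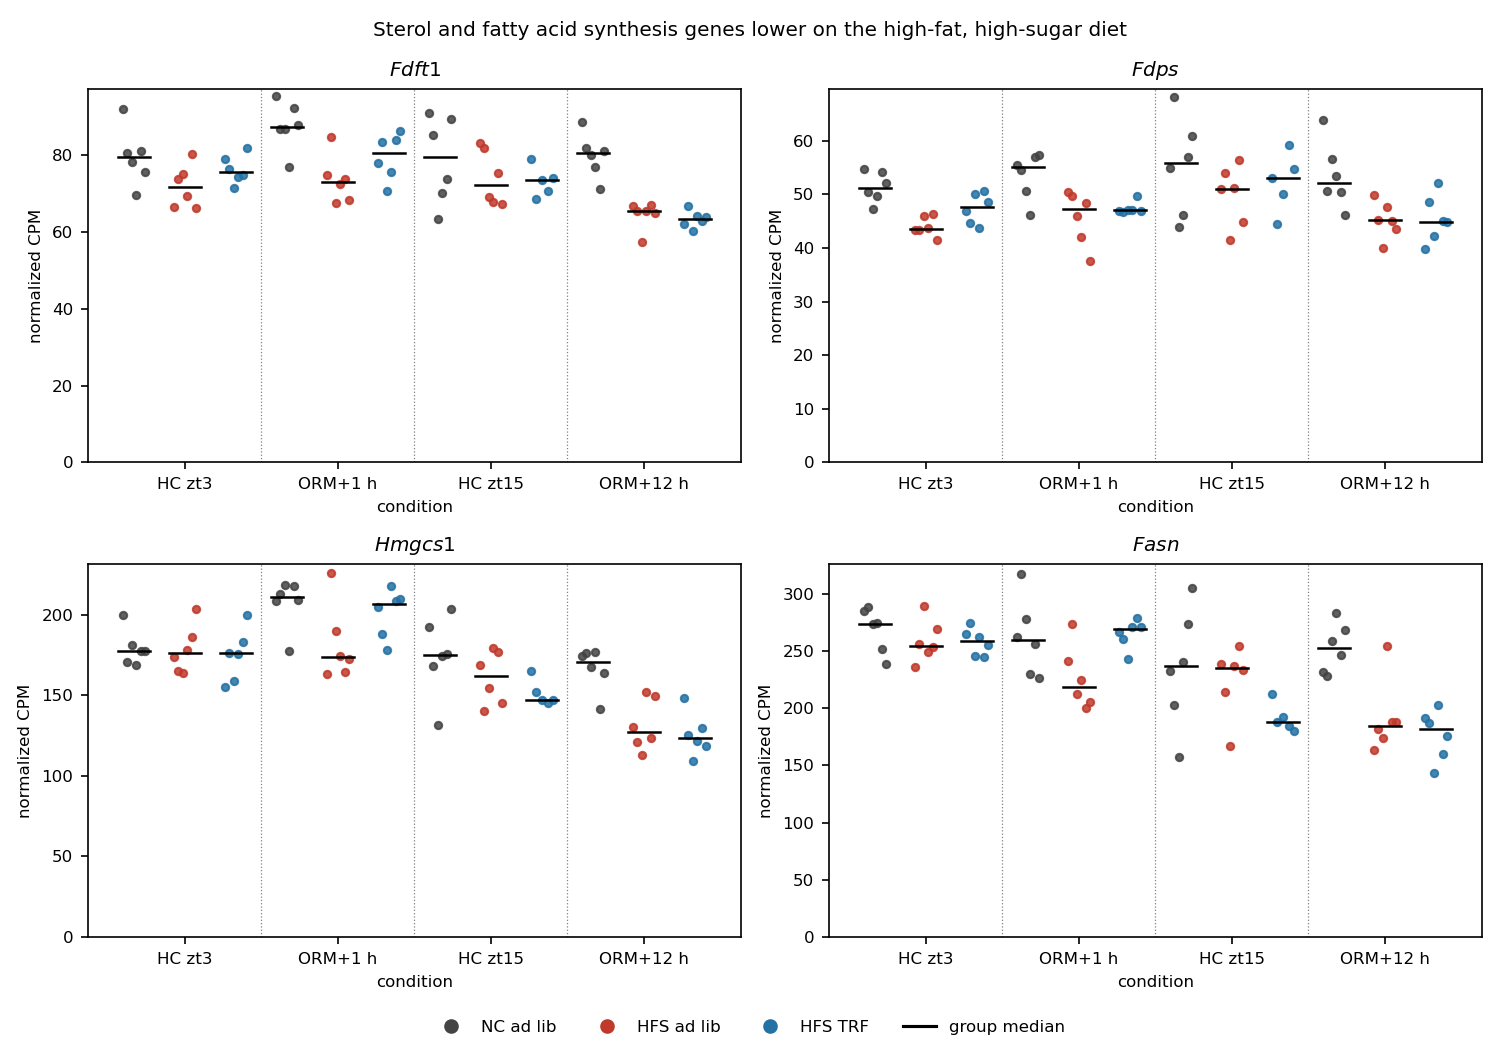
Normalized CPM of Fdft1, Fdps, Hmgcs1 and Fasn (vertical axes) in every mouse (points) of the 12 groups (horizontal axes, coloured by diet), with a bar at the median of each group. At ORM+12 h all 6 HFS ad lib mice have less Fdft1 (57.4 to 67.2 CPM) than any of the 6 NC ad lib mice (71.2 to 88.8 CPM).

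The 4 conditions were also compared separately, each with 6 mice per diet. After training by day and sampling at night (ORM+12 h), HFS ad lib mice had lower Fdft1, Hmgcs1, Fasn, Acly and Acat2, the cytosolic thiolase that makes acetoacetyl-CoA, than NC ad lib mice, and higher Nr1h2. In that condition 5 of the 39 genes fell and 1 rose, where 2.27% of all genes were called, 0.763% higher and 1.51% lower. The median over the 39 was -0.15, with 11 genes at an unadjusted p under 0.05 and 25 below 0. DESeq2 called 8.

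Fdft1 had 71.2, 80.7 and 88.8 CPM as its lowest, median and highest level in NC ad lib mice at ORM+12 h and 57.4, 65.4 and 67.2 CPM in HFS ad lib mice. Every HFS ad lib mouse lay below every NC ad lib mouse. Its log2 fold change was -0.31 (SE 0.07, adjusted p = 0.0131).

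Acat2 (ENSMUSG00000023832, chromosome 17 from 13161367 to 13179641) had 18.5, 23.6 and 25.0 CPM on NC ad lib and 15.6, 18.3 and 21.1 CPM on HFS ad lib. Of the 6 HFS ad lib mice 4 lay below the chow range and all 6 below the chow median. The log2 fold change was -0.34 (SE 0.08, adjusted p = 0.0185). The related thiolase gene Acat3 had a mean of only 1.82 CPM. Tcp1, which shares 5.48% of the exon bases of Acat2 on the opposite strand, fell by 0.23 on the log2 scale (adjusted p = 0.0163).

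Hmgcs1 ran from 142 to 177 CPM (median 171) in NC ad lib mice at ORM+12 h and from 113 to 152 CPM (median 127) in HFS ad lib mice, so that replicates 4 and 6 of HFS ad lib exceeded the lowest chow mouse. All 6 HFS ad lib mice were below the chow median, and the log2 fold change was -0.34 (SE 0.08, adjusted p = 0.0188). Fasn had 228, 253 and 283 CPM on NC ad lib and 164, 185 and 254 CPM on HFS ad lib. HFS ad lib replicate 4 alone reached the chow range, the other 5 lay below it, and the log2 fold change was -0.40 (SE 0.10, adjusted p = 0.0216). Acly fell by 0.27 (SE 0.08, adjusted p = 0.0389). Nr1h2 (ENSMUSG00000060601, chromosome 7 from 44199036 to 44203406) had 66.5, 73.7 and 79.6 CPM on NC ad lib and 77.2, 89.8 and 101 CPM on HFS ad lib. Of the 6 HFS ad lib mice 5 exceeded every chow mouse, and the log2 fold change was 0.29 (SE 0.07, adjusted p = 0.0241).

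The choroid plexus markers summed to 264 to 3729 CPM (median 378) in NC ad lib mice at ORM+12 h and to 184 to 16710 CPM (median 5432) in HFS ad lib mice, and 6 of the 8 had an unadjusted p under 0.05, with none called by edgeR. With those markers as a covariate 4 of the 39 genes fell and none rose, and without the choroid-rich mice none was called, with 7 at an unadjusted p under 0.05. That fit leaves out HFS ad lib replicates 1, 3 and 5 of this condition, at 9981, 9478 and 16710 CPM. In the replicates 2, 4 and 6 that stay, Fdft1 was 65.45, 65.43 and 65.06 CPM, below every chow mouse of this condition. Other genes overlapped chow in these mice. Replicate 4 lay inside the chow range for Hmgcs1 (151.8 CPM), Fasn (254.1 CPM), Acat2 (21.12 CPM) and Nr1h2 (77.18 CPM). Replicate 6 did so for Hmgcs1 (149.8 CPM). In a model of only these 2 groups none was called. The count was 1 without NC ad lib replicate 4 or HFS ad lib replicate 3 at ORM+12 h, and 3 without NC ad lib replicate 3 or HFS ad lib replicate 1. Fasn and Nr1h2 each lost their call in 6 of 12 fits with a mouse left out, Acat2 and Hmgcs1 in 2 and Fdft1 in none. The largest adjusted p was 0.0698 for Fasn, without NC ad lib replicate 4, and 0.074 for Nr1h2, without HFS ad lib replicate 1.

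In the other conditions edgeR called none of the 39 between the free-fed diets. At HC zt3, 3 had an unadjusted p under 0.05 and the median was 0.04, with 0% of all genes called and none of the 39 called by DESeq2. Fdps was not called there either, although its ranges did not overlap, at 47.3 to 54.7 CPM on NC ad lib and 41.4 to 46.4 CPM on HFS ad lib. At ORM+1 h, 11 had an unadjusted p under 0.05, 31 were below 0 and the median was -0.15, again with 0% of all genes and none of the 39 by DESeq2. Differences in that condition included Srebf1 at -0.69 (95% confidence interval -1.20 to -0.18, adjusted p = 0.496) and Fdft1 at -0.25 (-0.39 to -0.12, adjusted p = 0.469). At HC zt15, 7 had an unadjusted p under 0.05 and the median was -0.03, where 0.063% of all genes were called and DESeq2 called none of the 39.

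Restricting the hours of access to the same diet did not separate the 39 genes from free access to it in these mice. Between HFS TRF and HFS ad lib, edgeR called none of the 39 in the mean of 4 conditions, with 2 at an unadjusted p under 0.05, none by DESeq2 and 0% of all genes called. The median was 0.03, and 12 genes were below 0. Mvk, mevalonate kinase, differed by 0.14 (95% confidence interval 0.03 to 0.25, adjusted p = 0.439) and Stard4, a carrier of sterol within cells, by -0.11 (-0.21 to 0.00, adjusted p = 0.597). Condition by condition edgeR and DESeq2 called none either. At an unadjusted p under 0.05 were 0 of the 39 at HC zt3, 3 at ORM+1 h, 8 at HC zt15 and 4 at ORM+12 h. Of all genes, edgeR called 0% at HC zt3, ORM+1 h and HC zt15 and 0.00664% at ORM+12 h.

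Set against chow, HFS TRF mice had lower Fdft1, Fasn and Hmgcs1. These were the 3 genes of the 39 that fell in the mean of 4 conditions, none rose, and 0.269% of all genes were called, 0.063% higher and 0.206% lower. Another 10 had an unadjusted p under 0.05, 26 were below 0 and the median was -0.02. The HFS TRF and HFS ad lib comparisons share the same 24 chow mice.

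Fdft1 had 60.3, 74.1 and 86.4 CPM as its lowest, median and highest level in the 23 HFS TRF mice, and 22 of them lay below the chow median of their condition. Its log2 fold change was -0.16 (SE 0.03, adjusted p = 0.0328). Fasn had 144, 243 and 279 CPM on HFS TRF, with 17 of 23 mice on the low side and a log2 fold change of -0.21 (SE 0.05, adjusted p = 0.0401). Hmgcs1 had 109, 159 and 218 CPM, with 20 of 23 mice on the low side and a log2 fold change of -0.17 (SE 0.04, adjusted p = 0.0438). All of these ranges overlapped those of the chow mice.

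These 3 calls lay close to the threshold, and the count changed on leaving out any of many mice. The count fell to 0 on leaving out replicates 1 or 5 of NC ad lib ORM+1 h, 3 or 4 of NC ad lib ORM+12 h, 3 of HFS TRF HC zt3, 3 or 4 of HFS TRF ORM+1 h, or 4 or 5 of HFS TRF HC zt15. It fell to 1 without replicates 1 or 2 of NC ad lib HC zt3, 2 or 3 of NC ad lib ORM+1 h, 4, 5 or 6 of NC ad lib HC zt15, 4 of HFS TRF HC zt3, 2 of HFS TRF ORM+1 h, 2 or 3 of HFS TRF HC zt15, or 3, 5 or 6 of HFS TRF ORM+12 h. Without NC ad lib ORM+1 h replicate 4 or HFS TRF ORM+12 h replicate 2 it was 5, and without NC ad lib HC zt15 replicate 3 it was 6. Fdft1 lost its call in 9 of 47 such fits, Fasn in 24 and Hmgcs1 in 30. Over those fits the log2 fold change of Fdft1 ran from -0.17 to -0.15. That of Fasn ran from -0.24 to -0.19 and that of Hmgcs1 from -0.19 to -0.16. DESeq2 called 9, edgeR with a block for replicate number within condition also 9, and edgeR with a minimum of 1 count in total 1. Without the choroid-rich mice, or without the 4 HC zt3 mice with high astrocyte markers described below, edgeR called none.

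Home cage mice sampled by night differed from those sampled by day in 21 of the 39 genes, in a comparison where much of the whole transcriptome differed. Of the genes lower under HFS ad lib, Hmgcs1, Fasn and Acly were lower at HC zt15 and Mvd and Fdps were higher. Fdft1 was not called here. Between HC zt3 and HC zt15, over the 3 diets, Scd1, Scd2, Apoe, Soat1, which esterifies cholesterol for storage, Lcat, which esterifies it in lipoproteins, and Nr1h2 were higher at HC zt15, while Fasn, Acly, Acaca, which makes malonyl-CoA, Hmgcs1 and Mylip, which marks the LDL receptor for breakdown, were lower. Within fatty acid synthesis the desaturases and the synthases thus moved in opposite directions, a contrast lost in a fit with astrocyte markers as a covariate (Scd1 0.17 and not called, Scd2 -0.08). Of the 39 genes 16 rose and 5 fell, where 29.7% of all genes were called, 12.7% higher and 16.9% lower, and 44.4% of the genes at or above the level of the lowest of the 39. Their median was 0.10, with 23 at an unadjusted p under 0.05, beside a median of -0.02 over all genes. HC zt3 and HC zt15 mice belong to different experiments, so the hour of sampling cannot be separated from the experiment.

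Of the 18 sterol synthesis enzymes 7 rose (Pmvk, Cyp51, Mvd, Lss, Mvk, Fdps and Sc5d) and Hmgcs1 fell, with a median of 0.10. Of the 5 SREBP regulators Srebf1 and Insig1 rose, with a median of 0.05. In turnover, transport and LXR 5 of 10 rose (Soat1, Apoe, Nr1h2, Lcat and Abca1) and Mylip fell, with a median of 0.20. In fatty acid synthesis Scd1 and Scd2 rose and Fasn, Acly and Acaca fell, with a median of -0.06 over the 6.

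Scd1 (ENSMUSG00000037071, chromosome 19 from 44382894 to 44399154) had a lowest, median and highest level of 23.7, 29.3 and 48.3 CPM in the 18 HC zt3 mice and of 28.6, 54.9 and 104 CPM in the 17 HC zt15 mice. Of the HC zt15 mice 11 exceeded every HC zt3 mouse, and all 17 exceeded the HC zt3 median of their diet. Its log2 fold change was 0.84 (SE 0.12, adjusted p = 1.53e-08).

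Scd2 (ENSMUSG00000025203, chromosome 19 from 44281613 to 44295303) went from 447, 499.3 and 708 CPM at HC zt3 to 487, 658 and 870.1 CPM at HC zt15. The ranges overlapped and 15 of 17 mice were on the high side, with a log2 fold change of 0.39 (SE 0.07, adjusted p = 9.27e-06). Soat1 (ENSMUSG00000026600, chromosome 1 from 156252095 to 156303864) had 7.84, 11.4 and 15 CPM at HC zt3 and 12.8, 17.2 and 24.3 CPM at HC zt15. Of the HC zt15 mice 11 exceeded every HC zt3 mouse, all 17 mice were on the high side, and the log2 fold change was 0.62 (SE 0.09, adjusted p = 1.06e-07).

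Apoe (ENSMUSG00000002985, chromosome 7 from 19430034 to 19434947) had 216, 357 and 892 CPM at HC zt3 and 352, 908 and 1746 CPM at HC zt15. The highest HC zt3 mice were replicates 5 and 6 of HFS ad lib and of HFS TRF, at 846, 741, 719 and 892 CPM, and 9 of the HC zt15 mice exceeded them all. The lowest HC zt15 mouse was NC ad lib replicate 5, at 352 CPM. All 17 mice were on the high side, with a log2 fold change of 1.11 (SE 0.17, adjusted p = 2.06e-07). Nr1h2 had 63.3, 68.5 and 79.7 CPM at HC zt3 and 71.3, 82.2 and 95.6 CPM at HC zt15. Here too all 17 mice were on the high side, with a log2 fold change of 0.26 (SE 0.04, adjusted p = 1.47e-06).

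Among the genes that fell, Fasn had 236, 259 and 289 CPM at HC zt3 and 158, 214 and 305 CPM at HC zt15. Most HC zt15 mice, 15 of 17, were on the low side, while NC ad lib HC zt15 replicate 6 was the highest of all. The log2 fold change was -0.28 (SE 0.06, adjusted p = 7.63e-05). Those of Mylip, Acly, Acaca and Hmgcs1 were -0.24, -0.18, -0.14 and -0.13 (adjusted p = 0.000647, 0.000974, 0.0188 and 0.0245). In the sterol branch Cyp51, the demethylase of lanosterol, had 25.5, 29.9 and 36.1 CPM at HC zt3 and 27.6, 36.6 and 43.7 CPM at HC zt15. With 15 of 17 mice on the high side, it rose by 0.26 (adjusted p = 0.000407), and Pmvk, phosphomevalonate kinase, by 0.22 (adjusted p = 0.000266, 16 of 17 mice).

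Astrocyte markers moved in the same comparison. Their sum had a median of 1406 CPM at HC zt3, 3168 at ORM+1 h, 3379 at HC zt15 and 2602 at ORM+12 h, and all 9 rose from HC zt3 to HC zt15 over the 3 diets, by a median of 1.02. Markers of other cells were called as well, 6 of 10 of myelinating oligodendrocytes (4 higher, 2 lower, among them Mobp at 0.31, Cldn11 at 0.33 and Opalin at -0.64), 1 of 9 of neurons (Tubb3 at -0.17), 1 of 5 of precursors and 1 of 6 of endothelial cells. In a fit with their summed level as a covariate, 6 of the 39 genes were called in place of 21. Soat1 (0.48, adjusted p = 0.00412) and Nr1h2 (0.32, adjusted p = 1.83e-05) rose in that fit, while Hmgcs1 (-0.29, adjusted p = 6.96e-05), Fasn (-0.28, adjusted p = 0.0068), Acly (-0.18, adjusted p = 0.0356) and Lcat (-0.26, adjusted p = 0.0328) fell. Lcat, which rose by 0.93 without the covariate, thus changed sign, and Scd2 went to -0.08. Apoe, Scd1 and Cyp51 were at 0.06, 0.17 and 0.07 and were not called. With a fold change above 1.2 required, 8 of the 39 were called.

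**Figure D3:**
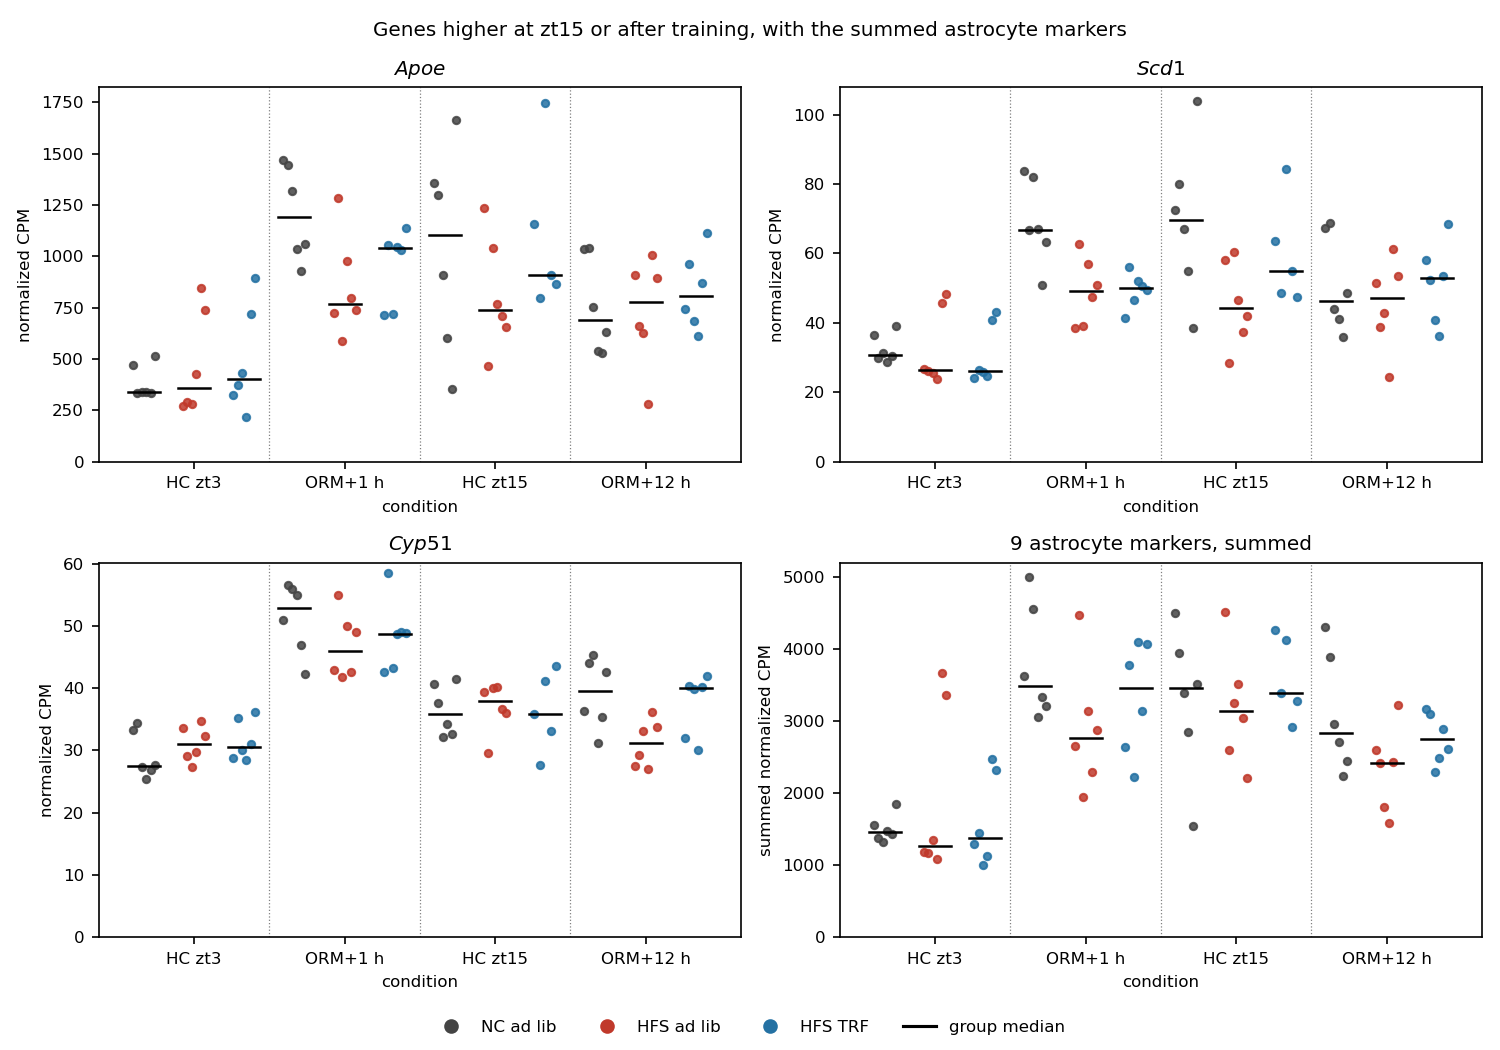
Normalized CPM of Apoe, Scd1 and Cyp51 and the summed level of 9 astrocyte markers (vertical axes) in every mouse (points) of the 12 groups (horizontal axes, coloured by diet), with a bar at the median of each group. Replicates 5 and 6 of HFS ad lib HC zt3 and of HFS TRF HC zt3 have the highest Apoe and Scd1 of their groups, and the highest sums of astrocyte markers.

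The change from HC zt3 to HC zt15 was then taken diet by diet. On NC ad lib 11 of the 39 genes rose and 1, Mylip, fell (11.7% of all genes called, 5.18% higher and 6.54% lower), with a median of 0.11 and 16 at an unadjusted p under 0.05. On HFS ad lib 3 rose and none fell (10.4% of all genes, 3.88% higher and 6.54% lower), with a median of 0.07 and 10 at an unadjusted p under 0.05. On HFS TRF 7 rose and 2 fell (14.2% of all genes, 5.95% higher and 8.26% lower), with a median of 0.11 and 19 at an unadjusted p under 0.05. These counts do not show that the diets differ. Tested directly, edgeR found none of the 39 to differ in its change between diets, with 2 at an unadjusted p under 0.05 for HFS ad lib against NC ad lib and 0 in the other pairs of diets, 0% of all genes called each time and none of the 39 by DESeq2. Those 2 were Scd1, whose change was smaller on HFS ad lib by -0.61 (95% confidence interval -1.17 to -0.05, adjusted p = 0.488), and Srebf1 at -0.74 (-1.46 to -0.02, adjusted p = 0.524).

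On NC ad lib, Scd1 had 28.8, 30.8 and 39 CPM at HC zt3 and 38.4, 69.6 and 104 CPM at HC zt15. Replicate 5 of HC zt15 lay within the HC zt3 range and the other 5 above it, and the log2 fold change was 1.09 (adjusted p = 3.58e-05). Soat1 had 7.84, 10.1 and 12.4 CPM at HC zt3 and 13.1, 16.2 and 22.7 CPM at HC zt15 on this diet, with no overlap and a log2 fold change of 0.76 (adjusted p = 0.000261). Apoe, Scd2, Srebf1, Abca1, Nr1h2, Lcat, Cyp51, Lss and Sc5d also rose, by 0.26 for Nr1h2 to 1.41 for Apoe. Cyp51 lost its call in 5 of 12 fits with a mouse left out and Nr1h2 in 1, with adjusted p = 0.0763 and 0.0752 without NC ad lib HC zt15 replicate 6. Without that mouse the count on this diet was 7, without the choroid-rich mice 4, and with the astrocyte covariate 3 (Soat1, Nr1h2 and, with its sign turned, Lcat). All 9 astrocyte markers rose on NC ad lib, by a median of 1.14. The neuronal Tubb3 fell by 0.23 (adjusted p = 0.0416, 1 of 9) and Gpr17 of precursors rose by 0.66 (adjusted p = 0.000109, 1 of 5), and their part was not tested.

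In HFS ad lib mice, Soat1, Pmvk and Nr1h2 rose. Soat1 had 8.82, 12.2 and 15 CPM at HC zt3 and 13.8, 18.2 and 21.0 CPM at HC zt15, with all but 1 of the HC zt15 mice above the HC zt3 range and a log2 fold change of 0.54 (adjusted p = 0.0144). Pmvk (ENSMUSG00000027952, chromosome 3 from 89361758 to 89376323) had 31.3, 35.5 and 38.7 CPM at HC zt3 and 41.3, 42.7 and 46.1 CPM at HC zt15. The groups did not overlap, and its log2 fold change was 0.29 (adjusted p = 0.0154), beside 0.24 for Nr1h2 (adjusted p = 0.0206). With a mouse left out, Nr1h2 lost its call in 3 of 12 fits (adjusted p = 0.0843 without HC zt15 replicate 6), and Soat1 and Pmvk each in 1. The HC zt3 group on this diet was split, with astrocyte sums of 3660 and 3356 CPM in replicates 5 and 6 and a group median of 1264. Leaving out replicate 5 of HC zt3 or replicate 2 of HC zt15 took the count to 7, leaving out replicate 6 of HC zt3 to 6, and leaving out replicate 1 of HC zt3 to 1. HFS TRF HC zt3 replicates 5 and 6 had sums of 2475 and 2320 CPM, and without all 4 of these mice the HFS ad lib count was 8. Of the astrocyte markers 3 of 9 rose on HFS ad lib, by a median of 0.63 over the list, and 2 of the 39 genes were called with them as a covariate. Of the 6 microglial markers Tmem119 and Csf1r rose, by 1.13 and 0.83 (adjusted p = 0.0099 and 0.0244), with 277 CPM for the list in HC zt15 replicate 2 and 35.4 to 40.8 CPM in the other 5 mice of its group. The neuronal marker Gad2 rose by 0.28 (adjusted p = 0.0404), 1 of 9, Gpr17 of precursors by 0.75 (adjusted p = 8.11e-06, 1 of 5) and Ly6c1 of endothelial cells by 2.35 (adjusted p = 0.00714, 1 of 6). The part of these cells was not tested.

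In HFS TRF mice, Scd1 had 24.1, 26.1 and 43.1 CPM at HC zt3, and the 5 HC zt15 mice had 63.6, 48.7, 84.4, 54.9 and 47.4 CPM. Every HC zt15 mouse was above every HC zt3 mouse, with a log2 fold change of 0.96 (adjusted p = 0.000443). Fasn had 245, 259 and 275 CPM at HC zt3 and 212, 188, 192, 185 and 180.3 CPM in the 5 HC zt15 mice. These groups were apart too, in the other direction, with a log2 fold change of -0.43 (adjusted p = 0.0015). Acly fell by 0.30 (adjusted p = 0.00556), and Apoe, Nr1h2, Lcat, Scd2, Soat1 and Pmvk rose by 1.15, 0.28, 1.09, 0.43, 0.54 and 0.28 (adjusted p = 0.00438, 0.00776, 0.0108, 0.014, 0.0148 and 0.0191). Without HFS TRF HC zt15 replicate 3 the adjusted p was 0.132 for Soat1 and 0.0858 for Scd2, and Pmvk lost its call in 3 of 11 fits with a mouse left out (adjusted p = 0.116 without HC zt15 replicate 5). Called in HFS TRF mice were also Opalin (-0.96, adjusted p = 0.00187) and Mobp (0.42, adjusted p = 0.039) of 10 markers of myelinating oligodendrocytes, Tubb3 (-0.27, adjusted p = 0.0148) of 9 of neurons and Gpr17 (0.73, adjusted p = 3.37e-05) of 5 of precursors, whose part was not tested. Of the astrocyte markers 8 of 9 rose, by a median of 1.15, and with them as a covariate 4 of the 39 genes were called (Hmgcs1, Nr1h2, Fasn and Acly). Without the choroid-rich mice the count was 4 as well.

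An hour after training, some enzymes of cholesterol synthesis were higher than in home cage mice. Cyp51 and Msmo1, the oxygenase that acts after Cyp51 on the sterol ring, rose on all 3 diets with no overlap between trained and home cage mice. Of the 39 genes 14 rose on NC ad lib, 3 on HFS ad lib and 9 on HFS TRF, and none fell. Over all genes 5.73% were called on NC ad lib (4.03% higher, 1.7% lower), 1.23% on HFS ad lib (0.74% higher, 0.491% lower) and 2.87% on HFS TRF (2.24% higher, 0.624% lower), and on NC ad lib 12.5% of the genes at or above the level of the lowest of the 39. Their medians were 0.23, 0.10 and 0.20, with 24, 19 and 18 at an unadjusted p under 0.05, beside medians of 0.00, 0.00 and -0.01 over all genes.

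Cyp51 (ENSMUSG00000001467, chromosome 5 from 4123416 to 4154751) went from 25.5, 27.5 and 34.4 CPM at HC zt3 to 42.3, 53.0 and 56.6 CPM at ORM+1 h on NC ad lib, a log2 fold change of 0.82 (SE 0.10, adjusted p = 2.97e-08). On HFS ad lib it went from 27.3, 31.0 and 34.8 CPM to 41.8, 46.0 and 55.1 CPM, a log2 fold change of 0.59 (adjusted p = 0.000136). In HFS TRF mice the levels were 28.5, 30.5 and 36.1 CPM and then 42.6, 48.8 and 58.5 CPM, a log2 fold change of 0.62 (adjusted p = 3.09e-05). In all 3 diets every trained mouse had more Cyp51 than any home cage mouse of its diet, and no mouse left out ended the call.

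Msmo1 (ENSMUSG00000031604, chromosome 8 from 65170603 to 65186830) had 27.9, 31.2 and 36.0 CPM at HC zt3 and 45.7, 54.5 and 57.0 CPM at ORM+1 h on NC ad lib (log2 fold change 0.72, adjusted p = 3.96e-06). On HFS TRF the levels were 31.1, 34.6 and 38.0 CPM and then 39.7, 49.8 and 56.4 CPM (0.51, adjusted p = 0.00215). It rose by 0.42 on HFS ad lib (adjusted p = 0.0286), a call lost in 7 of 12 fits with a mouse left out (adjusted p = 0.102 without HC zt3 replicate 2). Trained and home cage mice were apart on each diet. On HFS ad lib Pmvk also rose, from 31.3, 35.5 and 38.7 CPM to 38.9, 43.9 and 50.9 CPM (0.33, adjusted p = 0.0272). Its groups were just apart, and its call was lost in 5 of 12 such fits (adjusted p = 0.137 without ORM+1 h replicate 4).

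By role, the NC ad lib genes that rose were 6 sterol synthesis enzymes (Cyp51, Msmo1, Sc5d, Idi1, Mvd and Hsd17b7), 2 SREBP regulators (Insig1 and Srebf1), 4 genes of turnover and transport (Lcat, Apoe, Soat1 and Abca1) and both desaturases, Scd1 and Scd2. The largest of these changes were in Lcat at 1.82 (adjusted p = 3.23e-05), Apoe at 1.64 (adjusted p = 8.3e-05) and Scd1 at 1.08 (adjusted p = 0.000127). Apoe had 335 to 513 CPM in the home cage and 927 to 1471 CPM after training on this diet, with no overlap. On HFS TRF the 9 were Cyp51, Msmo1, Sc5d, Hsd17b7, Lcat, Soat1, Elovl6, Scd1 and Scd2. Of these, Soat1 lost its call in 11 of 12 fits with a mouse left out, Scd1 in 9 and Scd2 in 8, with adjusted p = 0.13, 0.124 and 0.126 without HC zt3 replicate 4. Lss, Tm7sf2, Nsdhl and Dhcr7, which also act late in the pathway, were called on no diet.

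No gene of the 39 was called by edgeR for a training change that differed between diets at ORM+1 h, with 4 at an unadjusted p under 0.05 for HFS ad lib against NC ad lib, 1 for HFS TRF against HFS ad lib and 2 for HFS TRF against NC ad lib, and 0% of all genes called in each. Srebf1 gave -0.83 for HFS ad lib against NC ad lib (95% confidence interval -1.55 to -0.11, adjusted p = 0.725). These interactions were not run in DESeq2.

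Astrocyte markers rose with training too, 9 of 9 on NC ad lib (median 1.37), 8 of 9 on HFS TRF (median 1.04) and 0 of 9 by edgeR on HFS ad lib (median 0.55, 7 at an unadjusted p under 0.05). With their summed level as a covariate 3 of the 39 genes rose on NC ad lib, 3 on HFS ad lib and 2 on HFS TRF. Cyp51 was among them on each diet, at 0.58, 0.46 and 0.42 (adjusted p = 0.00136, 0.00487 and 0.0204), and so was Elovl6, an elongase, at 0.48, 0.42 and 0.56 (adjusted p = 0.0261, 0.0232 and 0.00196). Msmo1 was called on NC ad lib in that fit (0.49, adjusted p = 0.0232), and Ebp, a sterol isomerase, on HFS ad lib (0.55, adjusted p = 0.0201). Scd2 went to -0.07 on HFS TRF.

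Neuronal markers moved the other way on NC ad lib. Of 9, Camk2a and Rbfox3 fell at ORM+1 h, by 0.45 and 0.26 (adjusted p = 0.000889 and 0.0162), with a median of -0.20 over the list. Their sum ran from 13580 to 15520 CPM in home cage mice and from 11890 to 13630 CPM in trained mice of this diet. On the other diets edgeR called no neuronal marker, with 1 and 2 at an unadjusted p under 0.05. Their part in the changes of the 39 genes was not tested.

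Single mice weighed on the counts with fewer calls. For HFS ad lib the count was 1 without HC zt3 replicate 1, 2 or 3 or ORM+1 h replicate 4, and 7 without HC zt3 replicate 5 or 6, while without the 4 HC zt3 mice with high astrocyte markers it was 10. The HFS TRF count was 5 without HC zt3 replicate 3 or 4 or ORM+1 h replicate 4, and leaving out ORM+1 h replicate 2 gave 4. DESeq2 called 7 on HFS ad lib and 14 on HFS TRF.

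Later after training little of this was called. At ORM+12 h against HC zt15, edgeR called none of the 39 on NC ad lib (4 at an unadjusted p under 0.05, none by DESeq2, median -0.06, 0.209% of all genes called). Acat2 fell on HFS ad lib and Scap, the escort of the SREBP factors, rose on HFS TRF, 1 gene on each diet. Background calls were 0.179% of all genes on HFS ad lib (0.0697% higher, 0.109% lower) and 2.46% on HFS TRF (1.57% higher, 0.889% lower). Of the 39 genes, 9 and 14 had an unadjusted p under 0.05, with medians of -0.06 and -0.11.

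Acat2 had 21.3, 23.3 and 26.2 CPM at HC zt15 and 15.6, 18.3 and 21.1 CPM at ORM+12 h on HFS ad lib. Every trained mouse was below every home cage mouse, with a log2 fold change of -0.35 (SE 0.08, adjusted p = 0.0337). Scap (ENSMUSG00000032485, chromosome 9 from 110158229 to 110214024) had 56.5, 57.3, 84.7, 66.1 and 60.8 CPM in the 5 HFS TRF HC zt15 mice and 65.1, 91.8 and 97.7 CPM as the lowest, median and highest of 6 ORM+12 h mice. HC zt15 replicate 3 stood among the trained mice, 4 of which exceeded every home cage mouse, and the log2 fold change was 0.39 (SE 0.11, adjusted p = 0.0461, 6 of 6 mice above the home cage median).

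Both calls lay close to the threshold. With a mouse left out, Acat2 lost its call in 9 of 12 fits and Scap in 8 of 11. For HFS ad lib the count was 0 without any of replicates 1, 2, 4 or 5 of HC zt15 or 1, 2, 3, 5 or 6 of ORM+12 h, and 4 without HC zt15 replicate 6 or ORM+12 h replicate 4. On HFS TRF it was 0 without replicate 1, 2, 4 or 5 of HC zt15 or 2, 3, 5 or 6 of ORM+12 h, and 2 without ORM+12 h replicate 1 or 4. DESeq2 called 4 genes on each of these diets. Fdft1 differed by -0.20 on HFS ad lib (95% confidence interval -0.34 to -0.06, adjusted p = 0.169) and by -0.21 on HFS TRF (-0.35 to -0.07, adjusted p = 0.0849) with no overlap between groups, and was not called. No astrocyte marker was called by edgeR at ORM+12 h on any diet, with 1, 3 and 1 of 9 at an unadjusted p under 0.05 and medians of -0.15, -0.52 and -0.54. Other markers were called where Acat2 and Scap were. On HFS ad lib the neuronal Gad2 fell by 0.40 (adjusted p = 0.0401), and all 6 microglial markers had an unadjusted p under 0.05 with a median of -0.91, against a home cage group that holds the mouse at 277 CPM. In HFS TRF mice the neuronal Slc17a7 and the myelin gene Mbp rose by 0.41 and 0.42 (adjusted p = 0.0376 and 0.0272), 1 of 9 and 1 of 10 markers. Their part was not tested.

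For the difference between diets in the change at ORM+12 h, 0.106% of all genes were called for HFS ad lib against NC ad lib and 0% for the other pairs, and none of the 39 by edgeR, with 12, 5 and 3 at an unadjusted p under 0.05. The smallest adjusted p was that of Acat2, at -0.35 for HFS ad lib against NC ad lib (95% confidence interval -0.57 to -0.12, adjusted p = 0.0902). Hsd17b7, a sterol ketone reductase, followed at -0.36 (-0.60 to -0.11, adjusted p = 0.099).

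Genes next to these pathways were followed through lists of related functions. Among 15 genes of fatty acid elongation, desaturation and activation, 8 rose from HC zt3 to HC zt15 over the 3 diets and none fell, with a median of 0.45, where 29.7% of all genes were called and all 9 astrocyte markers rose by a median of 1.02. They were led by the elongase Elovl5 (0.70, adjusted p = 5.2e-09) and the front-end desaturases Fads1 (0.72, adjusted p = 7.51e-09) and Fads2 (0.71, adjusted p = 1.09e-06). On NC ad lib 10 of the 15 rose at ORM+1 h, on HFS ad lib 1 and on HFS TRF 6, where 5.73%, 1.23% and 2.87% of all genes were called and 9, 0 and 8 of 9 astrocyte markers rose (medians 1.37, 0.55 and 1.04). Elovl5 was called on each diet, at 1.11, 0.62 and 0.96. Acss2, which makes acetyl-CoA from acetate, fell with Acly under HFS ad lib in the mean of 4 conditions, by 0.19 (adjusted p = 0.0146). It was the only call among the 15 there, where 2.61% of all genes were called. At ORM+12 h on HFS TRF, edgeR called Acss2 (-0.33, adjusted p = 0.036) and Me1 (-0.24, adjusted p = 0.0476) lower. In that comparison 0.889% of all genes were called lower.

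Of 8 genes of the isoprenoid branch, which leaves the pathway at farnesyl pyrophosphate, Nus1 rose (0.21, adjusted p = 0.0236) and Fntb fell (-0.12, adjusted p = 0.0333) under HFS ad lib in the mean of 4 conditions, with a median of 0.02, where 2.61% of all genes were called. Of 15 genes of lipid uptake and intracellular transport only Osbp, a sterol carrier between membranes, was called there (-0.09, adjusted p = 0.0286), beside 5.38% of the genes at or above the level of the lowest of the 39. From HC zt3 to HC zt15, 2 of those 15 rose and 4 fell, where 29.7% of all genes were called, among them the lipase Lpl (-0.35, adjusted p = 7.05e-06) and Cd36 (-1.09, adjusted p = 0.000463). Of 10 genes of SREBP processing and sterol degradation none was called by edgeR under HFS ad lib (0 at an unadjusted p under 0.05).

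Promoter sequence was searched for motifs of SREBP and of the factors that act with it. Windows of 300 bases, 250 before the start and the rest after it, were available from RefSeq for 32 of the 39 genes (43 windows), and not for Abcg1, Stard4, Fdps, Scd2, Fdft1, Sqle and Scd1. The letters CCAAT occurred on either strand in 24 of the 32 (75.0%, beside 41.1% of the 27025 symbols with a window) and GGGCGG in 24 (75.0%, beside 38.2%). CACGTG occurred in 6 (18.8%, beside 8.09%). A sterol response element spelled TCACNCCAC was found in Hmgcs1 alone (3.12%, beside 1.44%). In Fasn a pair of CCAAT matches on opposite strands share letters. A match is a description of letters.

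Shown are stretches before the RefSeq start of Hmgcs1, which holds the sterol response element, of Fasn, which was lower at HC zt15 and under HFS ad lib, and of Cyp51, which rose after training on each diet. The table gives them for build GRCm38.p6, and they were matched to GRCm39 at chr13:120151637-120151886 on the plus strand, chr11:120715403-120715623 on the minus strand and chr5:4154752-4154947 on the minus strand. The Fasn stretch lies inside the gene as annotated on GRCm39, whose outermost start is further upstream, at 120715995. Capitals mark matches to the motifs on either strand: in Hmgcs1 the element TCACCCCAC, 3 of CCAAT and 2 of GGGCGG, in Fasn 3 of CCAAT, and in Cyp51 1 of GGGCGG. The Fasn and Cyp51 stretches end at -30 and -55 from the start, and the CCAAT match counted for Cyp51 lies outside the stretch shown.
Hmgcs1: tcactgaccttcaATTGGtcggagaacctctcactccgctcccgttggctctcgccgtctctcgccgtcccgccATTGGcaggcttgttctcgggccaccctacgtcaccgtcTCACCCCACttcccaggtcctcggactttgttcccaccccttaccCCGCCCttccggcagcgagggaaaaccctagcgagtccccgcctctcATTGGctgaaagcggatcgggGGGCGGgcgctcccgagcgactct
Fasn: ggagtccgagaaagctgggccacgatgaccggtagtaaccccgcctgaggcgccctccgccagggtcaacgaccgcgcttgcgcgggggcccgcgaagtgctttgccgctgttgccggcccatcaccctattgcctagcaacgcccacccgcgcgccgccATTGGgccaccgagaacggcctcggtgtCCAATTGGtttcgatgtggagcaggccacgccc
Cyp51: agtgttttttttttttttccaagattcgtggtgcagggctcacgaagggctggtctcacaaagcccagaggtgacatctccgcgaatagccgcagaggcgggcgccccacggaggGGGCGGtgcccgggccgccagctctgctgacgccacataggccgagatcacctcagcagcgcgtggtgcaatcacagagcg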

How the data were processed

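Hippocampal pS6-TRAP messenger RNA was sequenced from 71 mice in 12 groups of diet and condition. According to the submitters' notes, the authors trimmed reads with Trim Galore 0.6.7 and cutadapt 3.4, aligned them to GRCm39 with HISAT2 2.2.0 and counted them per gene with featureCounts of Subread 2.0.3. The deposited values are raw counts, 1 column per mouse. Whether counting used strand is not stated. Even counts are in excess, at 78.1% of counts from 1 to 9, 78.9% from 10 to 49, 70.2% from 50 to 499 and 61% from 500 to 4999. Whether the mates of a pair were counted singly is not stated. If they were, the minimum of 10 counts and the totals per mouse stand for fewer fragments.

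Of 57010 genes, 56310 were matched to GENCODE M39, and the 30141 with at least 10 counts in total entered the tests. A single model of 12 groups was fitted after TMM normalization with edgeR 4.0.16 (quasi-likelihood test, Benjamini-Hochberg adjustment within each comparison over all genes tested) in R 4.3.3 with limma 3.58.1. Replicate numbers were not treated as pairs in this model. Over 70 pairs of mice with the same number and condition on different diets, r of their profiles had a median of 0.04. It ran from -0.69 to 0.71, with 30 pairs above 0.1, so a median near 0 cannot exclude pairing in some conditions. The code was tested on simulated data.

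Alternatives were DESeq2 1.42.0 (Wald test), edgeR scaled by DESeq2 size factors, a minimum of 1 count in total (35816 genes kept) or the filterByExpr rule (21512 genes kept), a fit of the compared groups alone, a block for replicate number, over all conditions or within each, a fold change above 1.2 for HC zt15 against HC zt3, and each mouse left out. Chosen after seeing the data were the astrocyte and choroid plexus covariates, the fits without 11 choroid-rich mice or without 4 HC zt3 mice, and the differences between diets in the training changes.

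The members and lists were chosen with earlier results of these data known. Values of single mice are given for called members with the smallest adjusted p, up to 5 in comparisons of means and up to 2 in others, plus 1 per role group, 15 members in all. Which of these 15 are also described in further comparisons was chosen after their values were seen. Other lists name up to 3 called genes per comparison. Promoter sequences are from RefSeq.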

Additional observations from a re-analysis of the deposited data

Results flagged for a closer look

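Within each of 180 groups of mice, for the 15 members whose single mice were described, the highest and the lowest mouse were compared with the others, and 11 values stood apart by more than Dixon's limit. Chance gives about 1 in 20 groups. Fdft1 was 57.4 CPM in HFS ad lib ORM+12 h replicate 3, below the 65.1 to 67.2 of the other mice of its group. Fdps was 49.6 CPM in HFS TRF ORM+1 h replicate 5, above 46.8 to 47.1. Hmgcs1 was 178 CPM in NC ad lib ORM+1 h replicate 4, below 208 to 218, and 141.5 CPM in NC ad lib ORM+12 h replicate 5, below 164 to 177. Mvd was 26.4 CPM in HFS ad lib ORM+12 h replicate 1, above 20.0 to 22.1. Fasn was 254 CPM in HFS ad lib ORM+12 h replicate 4, above 164 to 188. Acat2 was 26.8 CPM in HFS ad lib HC zt3 replicate 5, above 21.7 to 22.9, and 18.5 CPM in NC ad lib ORM+12 h replicate 6, below 22.7 to 25.0. Nr1h2 was 95.4 CPM in HFS TRF HC zt15 replicate 4, above 82.2 to 85.8. Pmvk was 51.5 CPM in HFS TRF ORM+1 h replicate 3, above 37.4 to 42.5, and Scap was 50.5 CPM in NC ad lib ORM+1 h replicate 6, below 64.3 to 69.1.

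Of 351 tests of whether a change in a member differed between diets, 0 passed the threshold on the adjusted p from edgeR.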

How the results depend on the processing

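Values here are how many of the 39 genes were called. Between HFS TRF and HFS ad lib, and in the differences between diets of the change from HC zt3 to HC zt15, the count was 0 in every alternative run. The astrocyte and choroid plexus covariates and the fits without 11 choroid-rich or 4 HC zt3 mice were chosen after seeing the data. Among the genes with single mice described, the direction was kept in all alternatives run except 4 fits with the astrocyte covariate. For each change below the cause was not tested.

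In HFS ad lib against NC ad lib, the mean count of 6 became 11 with DESeq2, 10 with the replicate block within condition and 0 without choroid-rich mice, and 5 to 10 with a mouse left out. At HC zt15 the astrocyte covariate gave 1 in place of 0. At ORM+12 h, 6 became 0 without choroid-rich mice and 0 in a model of only the groups compared, and 1 to 7 with a mouse left out. In HFS TRF against NC ad lib, 3 became 9 with DESeq2, 1 with at least 1 count in total, 9 with the replicate block within condition, 0 without choroid-rich mice and 0 without 4 HC zt3 mice, and 0 to 6 with a mouse left out.

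In HC zt15 against HC zt3, the mean count of 21 became 6 with the astrocyte covariate and 8 with a fold change above 1.2, and 19 to 22 with a mouse left out. On NC ad lib, 12 became 3 with the astrocyte covariate and 4 without choroid-rich mice, and 7 to 12 with a mouse left out. On HFS ad lib, 3 became 8 without 4 HC zt3 mice and 1 to 7 with a mouse left out. On HFS TRF, 9 became 4 with the astrocyte covariate and 4 without choroid-rich mice, and 8 to 12 with a mouse left out. Reversed with the astrocyte covariate were Scd2 (-0.0794), Lcat (-0.26), Lss (-0.07) and Insig1 (-0.04) in the mean, Lcat (-0.40) on NC ad lib, and Apoe (-0.0218), Scd2 (-0.11) and Lcat (-0.32) on HFS TRF.

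In ORM+1 h against HC zt3, 14 on NC ad lib became 3 with the astrocyte covariate, and 11 to 14 with a mouse left out. On HFS ad lib, 3 became 7 with DESeq2 and 10 without 4 HC zt3 mice, and 1 to 7 with a mouse left out. On HFS TRF, 9 became 14 with DESeq2, 2 with the astrocyte covariate and 14 in a model of only the groups compared, and 4 to 9 with a mouse left out, and Scd2 reversed with the astrocyte covariate (-0.0671).

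In ORM+12 h against HC zt15, 1 on HFS ad lib became 4 with DESeq2 and 0 without choroid-rich mice, without 4 HC zt3 mice or in a model of only the groups compared, and 0 to 4 with a mouse left out. On HFS TRF, 1 became 4 with DESeq2 and 0 with at least 1 count in total, the astrocyte covariate, the choroid plexus covariate or only the groups compared, and 0 to 2 with a mouse left out.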

Other observations

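Oxidation of fatty acids was followed through 15 genes, among them PPAR targets. From HC zt3 to HC zt15 over the 3 diets 8 of them rose and none fell (median 0.44), where 29.7% of all genes were called and all 9 astrocyte markers rose by a median of 1.02. Among the 8 were Acadl (0.62, adjusted p = 9.02e-05) and Pdk4 (0.74, adjusted p = 0.000467) in edgeR's quasi-likelihood test. On NC ad lib 8 of the 15 rose at ORM+1 h, where 5.73% of all genes were called and all 9 astrocyte markers rose by a median of 1.37, and on the other diets none was called, with 3 and 2 at an unadjusted p under 0.05. On HFS TRF 3 fell at ORM+12 h, Slc25a20, Hadhb and Acadl, by 0.52, 0.63 and 0.89 (adjusted p = 0.0225, 0.0232 and 0.0254), where 2.46% of all genes were called, 0.889% lower, and the 9 astrocyte markers had a median of -0.54 with none called by edgeR (1 at an unadjusted p under 0.05).

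Of 6 genes of myelin lipid synthesis, Sptlc2 and Cers2 rose from HC zt3 to HC zt15 over the 3 diets (0.18 and 0.28, adjusted p = 0.0272 and 0.0454), where 29.7% of all genes were called and the myelin markers Mobp and Cldn11 rose by 0.31 and 0.33, and Gal3st1 rose at ORM+12 h on HFS TRF (0.62, adjusted p = 0.025), where Mbp rose by 0.42 (adjusted p = 0.0272) and 1.57% of all genes were called higher. Among 5 markers of oligodendrocyte precursors, Gpr17 rose from HC zt3 to HC zt15 by 0.71 (adjusted p = 2.58e-12), and among 6 endothelial markers, which summed to between 0.814 and 14.7 CPM, Ly6c1 rose by 1.31 (adjusted p = 0.00313).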
